A study of Mus musculus with 21 samples.

Results

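The nuclear genes of oxidative phosphorylation were picked out of the count files by symbol: those beginning with *Nduf* followed by a, b, c, s or v (complex I), the 4 *Sdh* subunit genes (complex II), *Uqcr* (complex III), *Cox* followed by 4 to 8 (complex IV), *Atp5* (complex V), and the cytochrome *c* genes *Cycs* and *Cyct*. The rule takes no measured value into account. It found 94 of the 24456 genes counted, of which 93 had at least 1 read in some library. There were 36 genes of complex I, 4 of complex II, 8 of complex III, 20 of complex IV, 17 of complex V, 2 cytochromes *c* and 7 *Ndufaf* assembly factors, which help to build complex I without being part of it. *Ndufa4* and *Ndufa4l2* are placed with complex IV, to which the *Ndufa4* protein is now assigned. Otherwise the groups follow the symbols. *Atp5s* and *Atp5sl* (named *Dmac2* in GENCODE) are thus counted with complex V and *Cox7a2l* with complex IV, although they were not classed as structural subunits. Counts by complex are therefore not counts of subunits alone.

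RNA was isolated from purified fractions of mouse spermatogenic cells of wild-type (WT) males and of males with a knockout of *H2al2* (KO), the gene of H2A.L.2, a histone H2A variant of late spermatids. There were 3 WT and 3 KO libraries each of pachytene spermatocytes, which are meiotic cells, of round spermatids, which are the early haploid cells, and of condensing spermatids, in which histones are exchanged for protamines. Spermatozoa gave 2 WT libraries and 1 KO library, for 21 libraries in all. The strain, the age and number of animals behind a library and the design of the KO allele are not given in the sources used here. The study calls its WT round spermatid samples independent biological replicates, and for the other fractions the labels do not say that replicates came from separate animals, so p-values that rest on those measure the spread between these libraries, which may be technical.

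Oxidative phosphorylation passes electrons from NADH (complex I) and succinate (complex II) through complex III, cytochrome *c* and complex IV to oxygen, and the proton gradient this builds drives ATP synthesis by complex V. Complexes I, III, IV and V also contain subunits coded by mitochondrial DNA, whereas complex II is wholly nuclear. Male germ cells are known for replacing several subunits by isoforms made in the testis: *Cox6b2*, *Cox7b2* and *Cox8c* take the place of the complex IV subunits *Cox6b1*, *Cox7b* and *Cox8a*, and *Cyct* codes for the testis form of cytochrome *c*, next to *Cycs*, which is used in most other cells.

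The 8 genes of these pairs lie on 7 chromosomes in the mm10 assembly (GENCODE M21 gene bounds). *Cox6b2* (chr7:4751792-4753094, minus strand) and *Cox6b1* (chr7:30616861-30626151, minus strand) are both on chromosome 7. *Cox7b2* is at chr5:71442824-71548205, minus strand, and its partner *Cox7b* is X-linked (chrX:106015700-106022450, plus strand). *Cox8c* is at chr12:102899316-102900526, plus strand and *Cox8a* at chr19:7215153-7217616, minus strand. *Cyct* is at chr2:76353942-76360450, minus strand and *Cycs* at chr6:50562563-50566538, minus strand. RefSeq promoter windows (GRCm38.p6, from 250 bases before to 50 bases after the transcription start) were at hand for 78 of the 94 members and for 27025 genes in all. They were searched on both strands for the core of the NRF1 site (GCGCANGCG), an ETS-family site (CCGGAAGT) and the full CRE (TGACGTCA), none of which contains another. A gene was counted if any of its windows held the motif. The NRF1 core was present in 23 members (29.5%, against 7.03% of all genes with a window), the ETS site in 5 (6.41% against 4.31%) and the CRE in 5 (6.41% against 2.03%). The windows of the cytochrome *c* pair are shown because the levels of this pair changed the most against each other from pachytene to round spermatids, as described below (chr2:76360404-76360703 for *Cyct* and chr6:50566520-50566819 for *Cycs*, both on the minus strand and printed 5′ to 3′, with motif matches in capitals):
Cyct: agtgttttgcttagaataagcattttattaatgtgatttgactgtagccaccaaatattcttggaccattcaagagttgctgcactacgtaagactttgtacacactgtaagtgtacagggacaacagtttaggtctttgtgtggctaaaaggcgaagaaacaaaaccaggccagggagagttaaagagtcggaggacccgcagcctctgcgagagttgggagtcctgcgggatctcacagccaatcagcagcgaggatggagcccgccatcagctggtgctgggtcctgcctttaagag
Cycs: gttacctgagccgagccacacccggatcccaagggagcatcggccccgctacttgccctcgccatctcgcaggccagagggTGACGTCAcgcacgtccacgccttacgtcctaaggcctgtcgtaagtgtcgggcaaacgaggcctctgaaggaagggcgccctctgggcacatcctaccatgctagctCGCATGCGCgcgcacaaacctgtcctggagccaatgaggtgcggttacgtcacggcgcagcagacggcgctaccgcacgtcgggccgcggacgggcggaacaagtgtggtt
The *Cycs* window held a CRE whose first base is at -169 relative to the start and, on the opposite strand, an NRF1 core at -61. None of the 3 motifs was found in the windows of *Cyct*, *Cox6b2*, *Cox6b1*, *Cox7b2* or *Cox7b*, and that of *Cox8a* held the ETS site. The window of *Cox8c* was not analysed here. A match of letters is a description of the window and was not tested as a binding site.

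The libraries held 2772995 to 8201682 reads counted in genes, with the fewest in spermatozoa (2772995 to 3450580). The deleted gene, which the files list as *H2afb1*, ran at 14.5 to 40.8, 201 to 211 and 159.9 to 250 CPM (counts per 1000000, TMM-normalized over all libraries) in WT pachytene, round and condensing libraries, and at 3.16 to 4.92, 20.7 to 25.4 and 26.5 to 35.7 CPM in their KO counterparts. It was lower in every KO library than in any WT library of its stage, though never at 0. The summed level of 5 spermatocyte markers was 1535 to 2036 CPM in pachytene libraries, 196 to 280.1 CPM in round and 513 to 631 CPM in condensing spermatids. Condensing spermatid markers summed to 1460 to 3889, 16947 to 22331 and 17753 to 27920 CPM, so that they set spermatids apart from pachytene libraries but overlapped between round and condensing ones, and the round spermatid markers were at 1457 to 1610 CPM in round and 1024 to 1224 CPM in condensing libraries. Markers of other cells moved between the fractions too. The 5 Leydig cell markers summed to 22.4 to 138 CPM in pachytene, 5.90 to 12.3 CPM in round and 74.7 to 197 CPM in condensing libraries, and the 5 Sertoli cell markers to 21.3 to 45.1 CPM in round and 272 to 453 CPM in condensing libraries. WT round replicates 2 and 3 were close to sampling noise of each other over genes with 100 to 1000 counts in the pair (chi-square 1.06 per gene, against 4.44 and 4.48 for the other 2 pairs) but not over genes above 10000 counts (8.76 per gene). They were kept as 2 libraries, and counts with both summed as 1 are given beside the results. In bulk samples such as these, fewer cells of a type and less RNA per cell cannot be told apart.

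Nearly all members were expressed at every stage. A mean of at least 1 CPM was reached by 88 members in WT pachytene spermatocytes and by 88 in WT round spermatids. Together the 94 genes took 0.792% ± 0.0827 of the gene counts in WT pachytene spermatocytes (SD, n = 3), 0.491% ± 0.0221 in round libraries, 0.443% ± 0.0587 in condensing libraries and 0.380% ± 0.0113 in spermatozoa (n = 2). The highest member in CPM was *Atp5b*, the catalytic β subunit of ATP synthase, with 558 ± 87.7 CPM (SD, n = 3) in WT pachytene and 452 ± 22.9 CPM in WT round libraries. Levels of different genes were compared per kilobase of exon. On that scale, the most abundant complex I subunit in WT round spermatids was *Ndufc1* (172 CPM per kb), closely followed by *Ndufa7* (169 CPM per kb), and the least abundant was *Ndufs5* (2.48 CPM per kb). Of the 75-base exon windows of *Ndufs5*, however, 32.4% occur also in another gene. Part of its reads may thus have been left uncounted as multiply aligned. *Sdhb*, the iron-sulphur subunit, led complex II at 48.3 CPM per kb. *Uqcrc1*, a core subunit, led complex III at 136 CPM per kb, and *Atp5b* led complex V at 236 CPM per kb. In complex IV the first place was held by a testis isoform, *Cox8c*, at 429.5 CPM per kb, the highest value of any member. *Ndufaf3* was the most abundant of the assembly factors (77.3 CPM per kb).

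The testis isoforms prevailed over their somatic partners in meiotic and spermatid libraries. *Cox8c* stood at 399.6, 452 and 333 CPM in the 3 WT pachytene libraries, 209, 189.7 and 191 in round libraries, 159, 173 and 116 in condensing libraries and 25.6 and 24.3 in the 2 spermatozoa libraries. Its partner *Cox8a* stood at 5.05, 7.53 and 3.23 CPM in pachytene spermatocytes, 5.24, 4.45 and 3.48 in round libraries, 11.4, 9.16 and 9.84 in condensing libraries and 88.6 and 73.5 in spermatozoa. Per kilobase as well, the testis gene was above the somatic one in all 9 WT libraries up to condensing spermatids and below it in both spermatozoa libraries. *Cox8c* fell from pachytene to round spermatids by a log2 fold change of −0.97 ± 0.155 (SE; edgeR adjusted p = 8.79e-05) and from condensing spermatids to spermatozoa by −2.53 ± 0.195 (SE; edgeR adjusted p = 2.41e-10). The step from round to condensing spermatids, −0.37 ± 0.155 (SE; edgeR adjusted p = 0.0615), did not pass the threshold of 0.05, although it did so in 5 of the other settings tried, one of them without condensing replicate 2 (−0.52, adjusted p = 0.0298). *Cox8a* differed little between pachytene and round spermatids (−0.24 ± 0.281 SE, edgeR adjusted p = 0.460), then rose from round to condensing spermatids (1.22 ± 0.270 SE, edgeR adjusted p = 0.00247) and again in spermatozoa (3.05 ± 0.176 SE, edgeR adjusted p = 2.57e-12).

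*Cox6b2* and *Cox6b1* code for the subunit that bridges the monomers of the complex IV dimer. *Cox6b2* was measured at 227, 247 and 187 CPM in WT pachytene spermatocytes, 147, 150.2 and 158 in round libraries, 101, 99.0 and 70.3 in condensing libraries and 27.4 and 19.8 in spermatozoa. Each stage lay wholly below the one before it. The log2 fold change was −0.51 ± 0.148 (SE; edgeR adjusted p = 0.00776) from pachytene to round spermatids, −0.73 ± 0.150 (SE; edgeR adjusted p = 0.00164) from round to condensing spermatids and −1.88 ± 0.200 (SE; edgeR adjusted p = 3.49e-08) from condensing spermatids to spermatozoa. *Cox6b1* was measured at 6.98, 13.4 and 11.3 CPM in pachytene spermatocytes, 8.73, 8.48 and 7.54 in round libraries, 12, 12.5 and 13.2 in condensing libraries and 39.6 and 44.8 in spermatozoa. It rose in spermatozoa (1.79 ± 0.187 SE, edgeR adjusted p = 2.52e-08). Its higher level in condensing than in round spermatids (0.63 ± 0.217 SE, edgeR adjusted p = 0.0289) was a call that did not hold without single libraries. Leaving out condensing replicate 1, 2 or 3 or round replicate 2 or 3 gave 0.56 to 0.65 with adjusted p-values of 0.0557 to 0.0959, and summing round replicates 2 and 3 as 1 library gave 0.60 (adjusted p = 0.0693). Pachytene and round libraries overlapped (−0.32 ± 0.216 SE, edgeR adjusted p = 0.205), and without pachytene replicate 1 *Cox6b1* was lower in round spermatids (−0.56, adjusted p = 0.0164).

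*Cox7b2* and the X-linked *Cox7b* had the widest gap per kilobase in pachytene and round libraries. *Cox7b2* was at 129.8, 127 and 137 CPM in WT pachytene spermatocytes, 74.7, 79.1 and 87.7 in round libraries, 78.2, 79.2 and 55.5 in condensing libraries and 9.62 and 13.9 in spermatozoa. It fell at the first step (−0.67 ± 0.139 SE, edgeR adjusted p = 0.000712) and at the last (−2.56 ± 0.225 SE, edgeR adjusted p = 1.85e-09), whereas round and condensing libraries overlapped (−0.16 ± 0.140 SE, edgeR adjusted p = 0.375). *Cox7b* was represented by 6, 5 and 6 reads in the pachytene libraries and 8, 3 and 4 reads in the round spermatid libraries, so its level there is known only roughly. It then rose to 3.38, 2.33 and 4.92 CPM in condensing spermatids (2.33 ± 0.421 SE, edgeR adjusted p = 0.000664) and to 27.4 and 19.8 CPM in spermatozoa (2.80 ± 0.291 SE, edgeR adjusted p = 2.39e-08). Every condensing library was above every round library, and both spermatozoa libraries were above every condensing library.

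*Cyct* and *Cycs* followed a different course from the complex IV pairs. *Cyct* was at 94.9, 101 and 99.3 CPM in WT pachytene spermatocytes, 30.9, 35.5 and 39.9 in round libraries, 39.2, 41.1 and 35.0 in condensing libraries and 4.08 and 4.16 in spermatozoa. It fell sharply on entry into the haploid stages (−1.44 ± 0.123 SE, edgeR adjusted p = 3.88e-07), differed little between round and condensing spermatids (0.14 ± 0.126 SE, edgeR adjusted p = 0.360), and fell again in spermatozoa (−3.17 ± 0.253 SE, edgeR adjusted p = 4.34e-10). *Cycs* was at 3.61, 2.75 and 3.08 CPM in pachytene spermatocytes, 5.24, 6.67 and 5.51 in round libraries, 24.8, 15.6 and 22.5 in condensing libraries and 10.2 and 12.1 in spermatozoa. It rose in round spermatids (0.91 ± 0.245 SE, edgeR adjusted p = 0.00473) and in condensing spermatids (1.87 ± 0.207 SE, edgeR adjusted p = 1.85e-05), and was then lower in spermatozoa (−0.86 ± 0.256 SE, edgeR adjusted p = 0.00491), a call that was lost without spermatozoa replicate 1 (−0.72, adjusted p = 0.0721). *Cycs* was the only one of the 4 somatic partners whose level was lower in spermatozoa than in condensing spermatids. Of its 75-base exon windows, 26.1% occur also in other genes, so that part of its reads may have been left uncounted as multiply aligned. The other 7 genes of the pairs share no such window.

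**Figure D1:**
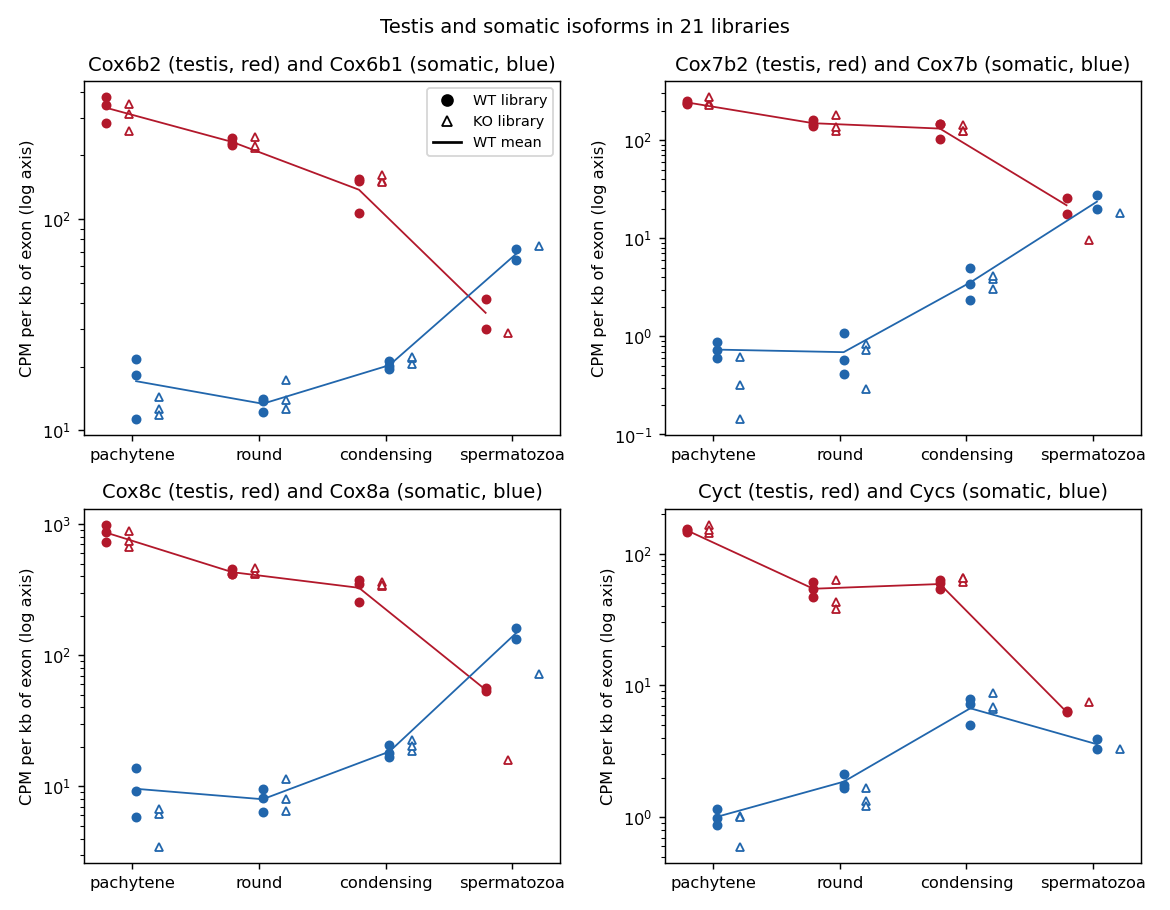
Levels of the 4 testis isoforms and their somatic partners in all 21 libraries, as TMM-normalized CPM per kb of exon on a log axis, with a filled point for each WT library, an open triangle for each KO library and a line through the WT means of pachytene spermatocytes, round spermatids, condensing spermatids and spermatozoa. The testis isoform lies above its partner in all pachytene, round and condensing libraries of each pair. The WT lines of the 3 complex IV pairs cross before spermatozoa, while those of *Cyct* and *Cycs* do not on this scale, although *Cycs* has more reads there.

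As a share of the pair per kilobase of exon, the testis isoform made up 95.1% ± 1.51 of *Cox6b2* plus *Cox6b1* in WT pachytene spermatocytes, 94.5% ± 0.583 in round libraries, 86.8% ± 2.96 in condensing libraries and 34.4% ± 7.11 in spermatozoa (SD). The share of *Cox7b2* went from 99.7% ± 0.05 through 99.5% ± 0.263 and 97.2% ± 1.58 to 47.9% ± 12.1, the 2 spermatozoa libraries lying on either side of equal shares. That of *Cox8c* went from 98.9% ± 0.286 through 98.2% ± 0.289 and 94.5% ± 1.18 to 27.1% ± 1.83. On this scale *Cyct* kept the larger share of the cytochrome *c* pair to the end, with 99.3% ± 0.111, 96.7% ± 0.495, 89.7% ± 2.56 and 63.8% ± 2.51. In the WT spermatozoa libraries, however, it had fewer reads than *Cycs* (14 and 12 against 35 in each). Its larger share there rests on these few reads and on the exon lengths used, 655 bases for *Cyct* and 3123 for *Cycs*. The ratio of the 2 counts within a library does not depend on library size. Adding 0.5 to each count, as was done here, brings in some dependence where reads are few, as for *Cox7b*. Changes of the log2 ratio were tested over WT and KO libraries with the stage labels permuted within genotype. With 400 arrangements the smallest p is 0.005.

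From round to condensing spermatids, the log2 ratio moved towards the somatic gene in all 4 pairs. It changed by −1.25 (exact permutation test, two-sided p = 0.00500, 0.0100 adjusted over the 12 ratio tests) for *Cox6b2* to *Cox6b1*, and by −2.59, −1.60 and −1.82 for *Cox7b2* to *Cox7b*, *Cox8c* to *Cox8a* and *Cyct* to *Cycs*, each at the same exact permutation p of 0.005. From pachytene to round spermatids, 2 of the 4 ratios changed: *Cyct* to *Cycs* by −2.38 (exact permutation test, two-sided p = 0.00500, 0.0100 adjusted over the 12 ratio tests) and *Cox8c* to *Cox8a* by −1.14 (exact permutation test, two-sided p = 0.00500, 0.0100 adjusted over the 12 ratio tests). The *Cox6b2* to *Cox6b1* ratio differed by −0.41 (exact permutation test, two-sided p = 0.0600, 0.0900 adjusted over the 12 ratio tests) and the *Cox7b2* to *Cox7b* ratio by −1.02 (exact permutation test, two-sided p = 0.0550, 0.0900 adjusted over the 12 ratio tests), which did not pass. Each of the 12 libraries was left out in turn. Without WT pachytene replicate 3 the *Cox6b2* ratio differed by −0.51 (exact permutation test, adjusted p = 0.0343) and passed. Without KO round replicate 3 the *Cox7b2* ratio differed by −1.30 (adjusted p = 0.0429) and passed. No other omission of a library brought either ratio past the threshold. Sertoli and Leydig cell markers were higher in condensing than in round libraries, as given above, and the somatic isoforms are known from most cell types. The part of these cells in the shift was not tested.

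From pachytene spermatocytes to round spermatids, members mostly fell. Of 89 tested in WT libraries, 52 were lower and 7 higher in round spermatids (edgeR's quasi-likelihood test, Benjamini-Hochberg adjusted p under 0.05 over all genes), which is 58.4% and 7.87%, against 35.9% lower and 34.4% higher among all 14011 genes tested. The median log2 fold change was −0.47 for members and −0.016 for all genes. The fall ran through the complexes: 23 of 36 members of complex I were lower and 3 higher, 3 of 4 of complex II were lower, 5 of 8 of complex III, 9 of 16 tested of complex IV with 1 higher, and 8 of 17 of complex V with 2 higher. With WT round replicates 2 and 3 summed, 44 were lower and 7 higher. Scaling by library size alone moved the median of all genes to −0.20, with 60 members lower and 4 higher. Among the 51 tested members that share no exon window with another gene, 29 were lower and 3 higher. Without the testis isoforms, their partners and the X-linked members, 47 of 79 were lower and 5 higher. The 5 members left untested for low counts were *Cox4i2*, *Cox6a2*, *Cox7a1*, *Cox8b* and *Ndufaf6*. All 5 Leydig markers were also lower in round than in pachytene libraries, with the sums given above, and the macrophage markers went from 2.20 to 4.06 to 16.1 to 23.6 CPM. The part of these cells in the members' fall was not tested.

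In complex II the catalytic flavoprotein *Sdha* went from 234 ± 20.3 CPM (SD, n = 3) to 107 ± 15.8 CPM (−1.09 ± 0.148 SE, edgeR adjusted p = 2.04e-05). The membrane anchors fell further, *Sdhc* from 65.7 ± 14.1 CPM to 21.9 ± 2.65 CPM (−1.55 ± 0.168 SE, edgeR adjusted p = 2.86e-06) and *Sdhd* from 55.6 ± 8.35 CPM to 18.7 ± 1.71 CPM (−1.54 ± 0.158 SE, edgeR adjusted p = 1.77e-06). The iron-sulphur subunit *Sdhb* was at 70.3, 76.1 and 55.0 CPM in pachytene spermatocytes and 63.0, 51.0 and 51.5 CPM in round spermatids, ranges that overlap (−0.25 ± 0.149 SE, edgeR adjusted p = 0.149). It passed the threshold when only library sizes were used for scaling or without pachytene replicate 3 (adjusted p = 0.0221 and 0.0265).

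The 5 largest falls came from complexes I, II, III and V. *Ndufc2*, an accessory subunit of complex I, was at 40.3, 44.7 and 28.7 CPM in pachytene and 8.19, 7.23 and 7.54 CPM in round libraries (−2.27 ± 0.203 SE, edgeR adjusted p = 5.54e-07). *Atp5g3*, 1 of the 3 genes that code for the c subunit of the ATP synthase ring, went from 37.8, 40.4 and 34.2 CPM to 10.5, 8.62 and 8.84 CPM (−1.97 ± 0.139 SE, edgeR adjusted p = 9.17e-08). *Uqcrc2*, a core subunit of complex III, went from 153, 166 and 127 CPM to 42.6, 34.6 and 34.8 CPM (−1.96 ± 0.152 SE, edgeR adjusted p = 1.92e-07). *Ndufb3*, an accessory subunit of complex I (26.2, 27.6 and 23.8 against 8.19, 7.93 and 8.26 CPM, −1.64 ± 0.146 SE, edgeR adjusted p = 5.60e-07), and *Sdhc* made up the rest. The rule that picked these 5 genes asked for groups without overlap, so their separation was set in advance. *Uqcrc2* shares 23.8% of its exon windows with other genes. Rises were smaller. After *Cycs*, the highest was that of the X-linked complex I subunit *Ndufb11* (0.87 ± 0.305 SE, edgeR adjusted p = 0.0212), followed by *Atp5s*, known as a coupling factor of ATP synthase (0.78 ± 0.139 SE, edgeR adjusted p = 0.000241), *Ndufa4l2*, a hypoxia-induced relative of *Ndufa4* (0.67 ± 0.125 SE, edgeR adjusted p = 0.000316), and the complex I subunit *Ndufa13* (0.66 ± 0.196 SE, edgeR adjusted p = 0.00844). The call of *Ndufb11* was lost with library-size scaling (0.69), without pachytene replicate 1 (0.70) or without round replicate 1 (0.69).

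**Figure D2:**
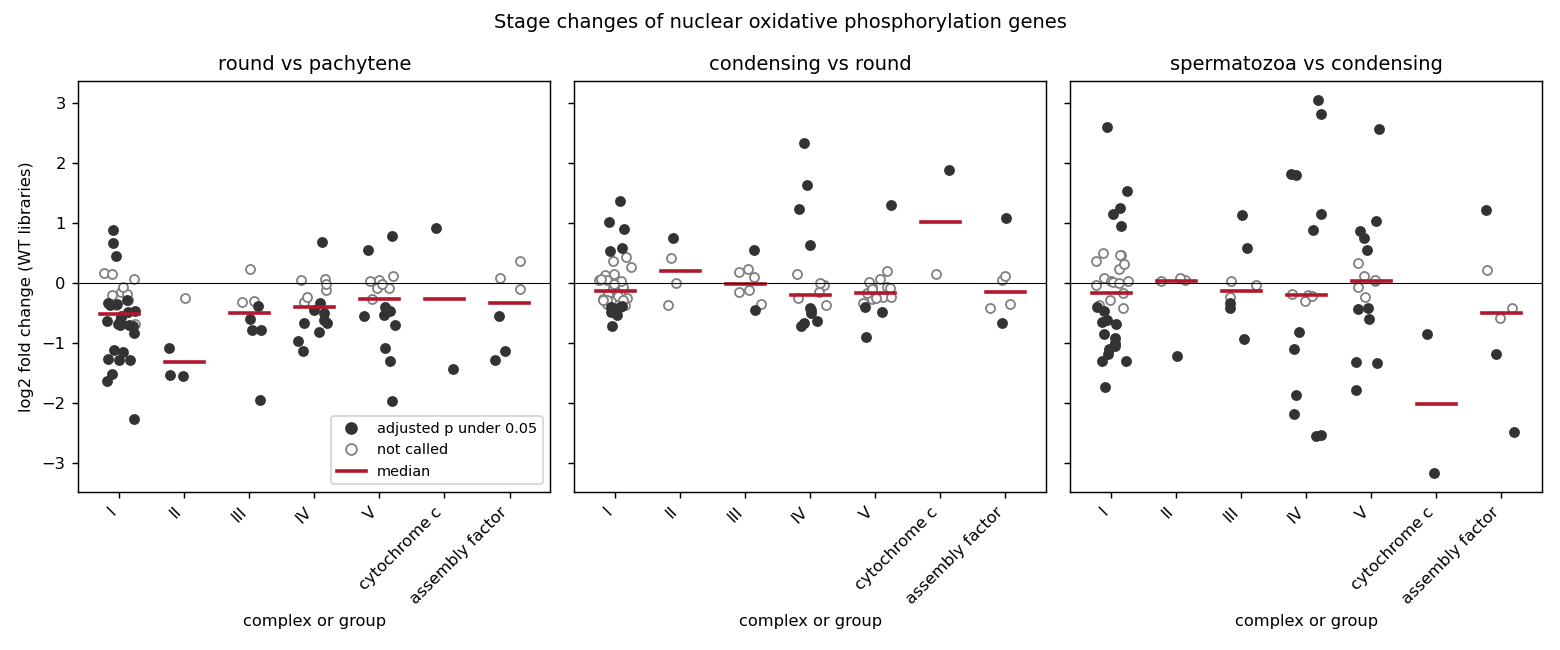
Log2 fold change of each tested member by complex in the 3 WT stage comparisons (edgeR, TMM), with filled points for an adjusted p under 0.05. The red bars are medians by complex, which lie below 0 in every complex in round against pachytene and closer to 0 for complexes I to V in condensing against round, where that of the cytochrome *c* pair is 1.01.

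From round to condensing spermatids, members moved both ways. Of 89 tested, 14 were higher and 17 lower (15.7% and 19.1%), against 28.3% higher and 21.8% lower among all genes, and 58 did not pass the test. The split depended on scaling, being 16 higher and 11 lower with library sizes alone, which moved the median of all genes to 0.11. With WT round replicates 2 and 3 summed there were 12 higher and 13 lower. The medians were −0.11 for members and 0.04 for all genes. After *Cox7b* and *Cycs*, the highest rise was that of *Ndufa4*, from 2.42, 2.78 and 2.90 to 10.2, 7.56 and 6.85 CPM (1.62 ± 0.260 SE, edgeR adjusted p = 0.000282), to above its 3 pachytene values of 3.61, 6.33 and 4.69 CPM. *Ndufb11* rose from 3.49, 2.78 and 2.17 to 7.38, 5.96 and 8.26 CPM (1.36 ± 0.255 SE, edgeR adjusted p = 0.000852) and *Atp5g3* from 10.5, 8.62 and 8.84 to 22.3, 24.9 and 20.4 CPM (1.30 ± 0.143 SE, edgeR adjusted p = 1.79e-05). The rule that picked these genes asked for groups without overlap.

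The falls at this step were below 1 log2 unit. *Atp5s* went from 36.1, 40.0 and 39.6 to 23.9, 19.6 and 17.2 CPM (−0.90 ± 0.142 SE, edgeR adjusted p = 0.000253), back to near its pachytene values of 25.9, 21.1 and 22.0 CPM. *Ndufa12*, an accessory subunit of complex I, went from 121, 116 and 111 to 79.8, 71.7 and 56.8 CPM (−0.72 ± 0.158 SE, edgeR adjusted p = 0.00249). *Ndufa4l2*, at 14.7, 14.7 and 12.5 CPM in pachytene spermatocytes, went from 20.9, 21.7 and 22.8 to 13.8, 13.2 and 13.2 CPM (−0.68 ± 0.128 SE, edgeR adjusted p = 0.000907). *Ndufaf2*, whose product takes the place of *Ndufa12* while complex I is being assembled, went from 47.0, 45.8 and 51.0 to 36.6, 26.2 and 26.0 CPM (−0.67 ± 0.165 SE, edgeR adjusted p = 0.00479). All 4 were picked among members whose groups did not overlap. *Ndufa4* and *Ndufa4l2* therefore moved in opposite directions at both steps, *Ndufa4* having been lower in round than in pachytene libraries (−0.82 ± 0.269 SE, edgeR adjusted p = 0.0151), a call lost without pachytene replicate 2 (−0.59) or round replicate 1 (−0.74). In complex II, *Sdhd* rose (0.74 ± 0.162 SE, edgeR adjusted p = 0.00233) and the other 3 subunits did not pass. Of the 5 spermatocyte markers, 4 were also higher in WT condensing than in round spermatids. The part of spermatocyte, Sertoli and Leydig cell RNA of the condensing libraries in these rises and falls was not tested.

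Of the 94 members, 3 are X-linked. They were chosen for description after their values were seen: *Cox7b*, *Ndufb11* and *Ndufa1*, an accessory subunit of complex I. As background, the X chromosome is silenced in pachytene spermatocytes. *Ndufa1* was at 7.82, 6.57 and 5.87 CPM in pachytene spermatocytes, 5.51, 3.06 and 4.20 in round libraries, 9.69, 8.58 and 7.03 in condensing libraries and 23.3 and 23.9 in spermatozoa. *Ndufb11* was at 1.20, 2.03 and 1.47 CPM in pachytene spermatocytes and 43.4 and 40.6 CPM in spermatozoa. Between pachytene and round spermatids the 3 genes did not share a direction: *Ndufb11* was higher, *Ndufa1* was lower (−0.63 ± 0.237 SE, edgeR adjusted p = 0.0290), and *Cox7b*, with its few reads, gave −0.028 ± 0.529 (SE; edgeR adjusted p = 0.966). The *Ndufa1* call was lost in 5 of the other settings, among them those without pachytene replicate 1 (−0.52), round replicate 2 (−0.44) and round replicate 3 (−0.62). All 3 then rose at both later steps, *Ndufa1* by 1.01 ± 0.236 (SE; edgeR adjusted p = 0.00358) in condensing spermatids and by 1.53 ± 0.226 (SE; edgeR adjusted p = 3.76e-06) in spermatozoa. In the KO libraries all 3 were likewise higher in condensing than in round spermatids, and none passed between round spermatids and pachytene spermatocytes. Without KO pachytene replicate 1, however, *Ndufb11* was higher in KO round spermatids (1.19, edgeR adjusted p = 0.0262).

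**Figure D3:**
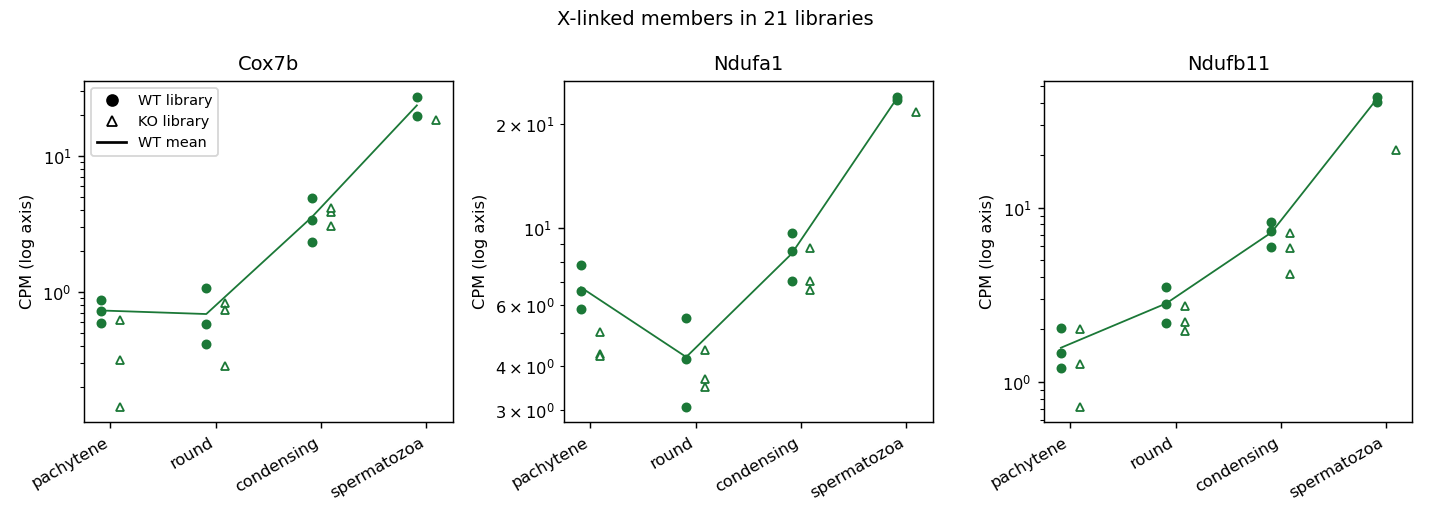
Levels of *Cox7b*, *Ndufa1* and *Ndufb11* in all 21 libraries by stage, as TMM-normalized CPM on a log axis, with a filled point for each WT library, an open triangle for each KO library and a line through the WT means. The spermatozoa libraries lie highest for each gene, and the round libraries of *Ndufa1* lie lower than its condensing ones.

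Spermatozoa differed from condensing spermatids in both directions. Of 88 members tested in 2 against 3 WT libraries, 34 were lower and 19 higher (38.6% and 21.6%), against 35.8% lower and 36.6% higher among 15116 genes. Among members picked for groups without overlap, the 3 largest falls were those of the testis isoforms *Cyct*, *Cox7b2* and *Cox8c*. The 3 largest rises were those of *Cox8a*, *Cox7b* and *Ndufb11* (2.60 ± 0.208 SE, edgeR adjusted p = 4.41e-10). In complex I, 14 of 35 tested members were lower and 5 higher, in complex IV 6 of 16 each way, and in complex V 6 of 17 lower and 5 higher. *Sdhb* fell (−1.22 ± 0.229 SE, edgeR adjusted p = 6.80e-05), while the other 3 complex II genes did not pass. *Cox4i1*, the main form of complex IV subunit 4, was at 245 and 283 CPM in WT spermatozoa and *Atp5b* at 252 and 246 CPM, each being the highest member in 1 of the 2 libraries. Together the 4 testis isoforms took 0.0885% ± 0.00575 of gene counts in WT pachytene spermatocytes, 0.0350% ± 0.00720 in condensing libraries and 0.00655% ± 0.000128 in spermatozoa, and the 4 partners 0.00206% ± 0.000395, 0.00471% ± 0.000568 and 0.0160% ± 0.000619.

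The spermatozoa libraries also carried RNA that is typical of other cells. The 5 macrophage markers, all of them detected, summed to 678 to 729 CPM in the WT spermatozoa libraries, against 24.3 to 31.2 CPM in condensing spermatids. *Crisp1*, a product of epididymis epithelium, made up nearly all of that list's 1483 to 1565 CPM, with *Lcn5*, *Lcn8* and *Spint4* at 0. Sertoli and Leydig markers were lower in WT spermatozoa (194 to 242 and 9.37 to 9.91 CPM) than in condensing spermatids (349.6 to 453 and 129 to 197 CPM). Nearly all of the Sertoli sum in WT spermatozoa was *Clu* (mean 205 CPM). Means there were 2.10 CPM for *Wt1*, 5.72 for *Sox9*, 0.173 for *Rhox5* and 5.32 for *Amhr2*. The part of RNA from other cells in the rises and falls of members in spermatozoa was not tested. This holds for the isoform pairs and the X-linked members as well.

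Of the 5 isoforms known from other tissues, 4 were near or below detection in pachytene and round libraries. The exception was *Ndufa4l2*, described above, which at 20.9, 21.7 and 22.8 CPM in WT round spermatids and 23.3 CPM per kb lay above its relative *Ndufa4* (4.42 CPM per kb). *Cox8b*, a heart and muscle form, had no read in any library, where a count of 0 allows up to 0.366 to 1.08 CPM depending on depth. *Cox6a2*, also of heart and muscle, had 1 read in all, in a WT round spermatid library, and *Cox4i2*, a lung form, stayed at or below 0.277 CPM. Their partners were abundant, *Cox6a1* at 41.1 ± 3.81 CPM (SD, n = 3) and *Cox4i1* at 154 ± 10.9 CPM in WT round spermatids. *Cox7a1*, the heart and muscle partner of *Cox7a2*, was at 0.769, 0.727 and 0.879 CPM in WT and 0.575, 0.691 and 1.23 CPM in KO condensing spermatids and at or below 0.293 CPM in all pachytene and round libraries. All 6 condensing libraries thus exceeded all earlier ones, at levels far below *Cox7a2* (104 ± 15.4 CPM SD, n = 3, in WT condensing spermatids). The 5 myoid markers summed to 293 to 412 CPM in condensing and 315 to 414 CPM in round libraries, a sum made up mostly of *Actg2* (299 and 319 CPM in WT). Of the 4 that were tested, 2 were higher in WT condensing than in round spermatids, where the means of *Acta2* were 19.98 and 3.66 CPM and those of *Myh11* 22.7 and 6.60 CPM. Their part in the *Cox7a1* signal was not tested.

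A list of 52 other pathway genes, holding assembly factors with other names and regulators of mitochondrial biogenesis, was read beside the members. Of 51 tested, 27 (52.9%) were lower and 6 (11.8%) higher in round than in pachytene WT libraries, against 35.9% and 34.4% of all genes. From round to condensing spermatids 15 (29.4%) were higher and 6 (11.8%) lower, against 28.3% and 21.8% of all genes. From condensing spermatids to spermatozoa 16 (31.4%) were higher and 11 (21.6%) lower, against 36.6% and 35.8%. The shares of list genes that were higher in condensing spermatids and in spermatozoa were thus near or under those of all genes. In condensing spermatids only 8 were higher and 5 lower without condensing replicate 1, and 9 and 4 without round replicate 3. In spermatozoa only 12 were higher and 5 lower by DESeq2, and 9 and 7 without spermatozoa replicate 2. *Tfam*, the packaging and transcription factor of mitochondrial DNA, was named after its values were seen: it went from 30.2 ± 8.94 CPM in pachytene spermatocytes to 211 ± 17.1 CPM in round spermatids (2.83 ± 0.224 SE, edgeR adjusted p = 2.20e-07), 223 ± 55.2 CPM in condensing spermatids (0.11 ± 0.205 SE, edgeR adjusted p = 0.693) and 35.6 ± 0.335 CPM in spermatozoa (−2.60 ± 0.204 SE, edgeR adjusted p = 3.33e-10). The testis is known to make *Tfam* transcripts with other first exons, which gene counts do not separate. Of the 13 protein genes of mitochondrial DNA, 10 could be tested. All 10 were lower in round than in pachytene spermatocytes and all 10 higher in condensing than in round spermatids (6 without condensing replicate 1). The summed spermatocyte markers, given above, moved in the same directions, and the part of spermatocyte RNA was not tested. In spermatozoa 5 were higher and 1 lower (3 and 0 without spermatozoa replicate 1).

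The stage changes were measured again in the KO libraries, which the WT comparisons do not use. In round against pachytene, 10 of 89 members were higher and 48 lower in KO, against 36.5% and 38.4% of all genes tested there. Members called in both genotypes numbered 52, all with the same sign, which is 88.1% of the 59 called in WT and 89.7% of the 58 called in KO. Across the 89 members, Pearson's r between the WT and KO log2 fold changes was 0.942, and across 13676 genes 0.945. Genes are not independent replicates, so these are descriptions. In condensing against round, 17 members were higher and 24 lower in KO, against 29.7% and 24.5% of all genes, and 25 were called in both genotypes with the same sign (80.7% of 31 in WT and 61.0% of 41 in KO), with r = 0.936 over members and 0.935 over all genes.

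The isoform pairs were read in the same way. In KO libraries, round against pachytene gave −1.70 ± 0.142 (SE; edgeR adjusted p = 1.58e-09) for *Cyct*, −0.84 ± 0.107 for *Cox8c*, −0.77 ± 0.130 for *Cox7b2* and −0.45 ± 0.108 for *Cox6b2*, all 4 past the threshold. Condensing against round gave 2.41 ± 0.201 (SE; edgeR adjusted p = 1.65e-08) for *Cycs*, 2.56 ± 0.400 for *Cox7b*, 1.26 ± 0.227 for *Cox8a* and 0.57 ± 0.166 for *Cox6b1*, again all 4. *Cyct* was higher in KO condensing than in KO round libraries (0.42 ± 0.146 SE, edgeR adjusted p = 0.0199), a call lost without KO condensing replicate 1 (0.39) or KO round replicate 1 or 2 (0.34 and 0.28). *Cycs* was higher in KO round than in KO pachytene libraries (0.67 ± 0.273 SE, edgeR adjusted p = 0.0339), a call lost without KO pachytene replicate 1 (0.45), without KO round replicate 3 (0.55) or with library-size scaling (0.52). *Cox8a* was also higher in KO round than in KO pachytene libraries (0.64 ± 0.278 SE, edgeR adjusted p = 0.0455), a call lost in 7 of the other settings, for example without KO round replicate 1 (0.40), KO round replicate 2 (0.69), KO pachytene replicate 1 (0.72) or KO pachytene replicate 2 (0.41).

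**Figure D4:**
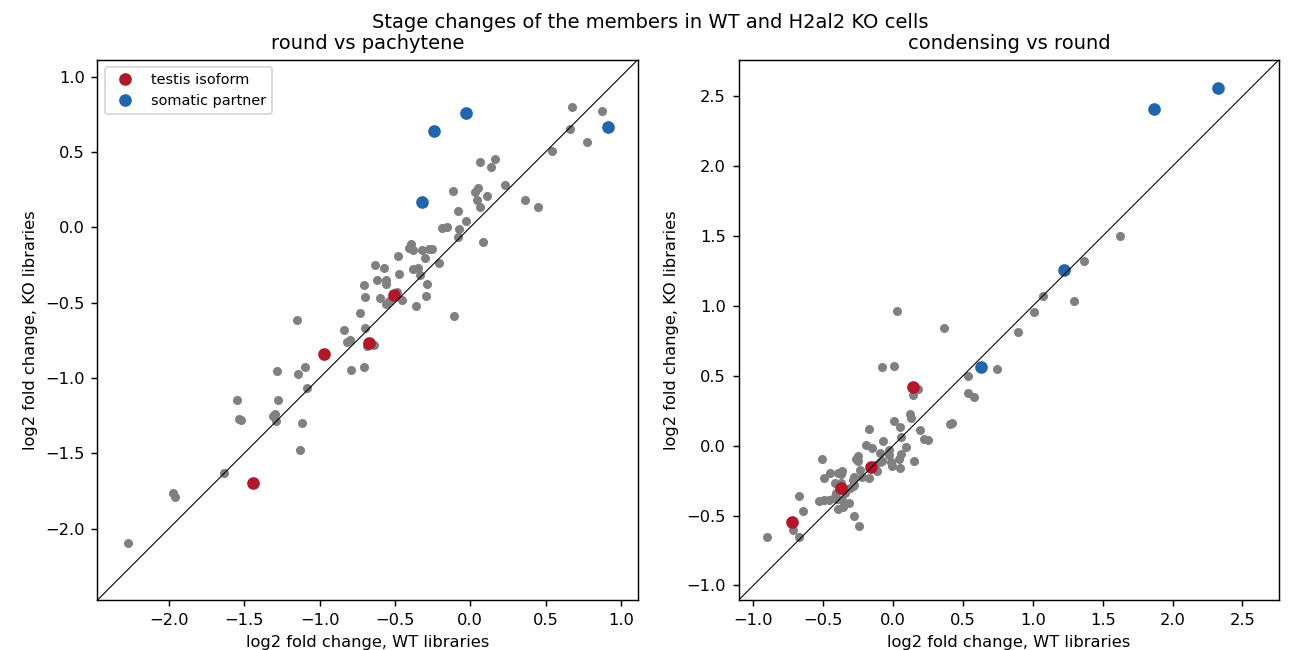
Log2 fold change of each member in WT (horizontal axis) against KO (vertical axis) for round against pachytene and for condensing against round, with testis isoforms and somatic partners marked. The points follow the diagonal, with Pearson's r of 0.942 and 0.936 over 89 members.

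No member passed the test between KO and WT at any stage. By edgeR's quasi-likelihood test, 0 of 88 members passed in pachytene spermatocytes, 0 of 87 in round spermatids and 0 of 89 in condensing spermatids, where 0%, 0.0156% and 0.00728% of all genes passed. An unadjusted p under 0.05 was reached by 1 member in pachytene, 1 in round and 5 in condensing libraries, where 6.66%, 5.88% and 6.33% of all genes reached it. DESeq2 also called 0 at each stage, with 0, 1 and 1 members at an unadjusted p under 0.05. The median size of the log2 difference was 0.107, 0.0692 and 0.0940. The 95% interval of the difference lay within a 2-fold change either way for 85 of 88, 87 of 87 and 88 of 89 members, so larger effects than that are outside the intervals of nearly all of them.

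The members with the largest difference at each stage were named after their values were seen. *Cox8a* was at 5.05, 7.53 and 3.23 CPM in WT and 3.42, 1.90 and 3.73 CPM in KO pachytene spermatocytes, groups that overlap (−0.73 ± 0.339 SE, edgeR adjusted p = 0.656). *Ndufs8*, an iron-sulphur subunit of complex I, was at 11.9, 6.95 and 8.41 CPM in WT and 11.6, 11.3 and 13.7 CPM in KO round spermatids, groups that overlap (0.43 ± 0.200 SE, edgeR adjusted p = 0.856). *Ndufs5*, an accessory subunit of complex I, was at 1.39, 1.60 and 0.879 CPM in WT and 2.45, 2.07 and 2.46 CPM in KO condensing spermatids, groups that do not overlap (0.81 ± 0.339 SE, edgeR adjusted p = 0.736). Its values there rest on few reads, 9, 11 and 5 in WT and 17, 15 and 16 in KO. Part of its exon sequence is also shared with another gene. None of these members passed the test. The isoform ratios likewise gave no difference between genotypes past the threshold (genotype labels permuted within stage, 8000 arrangements, smallest p 0.00025). The log2 ratio differed by 0.06 (exact permutation test, two-sided p = 0.676, 0.676 adjusted over the 12 ratio tests) for *Cox6b2* to *Cox6b1*. For *Cox7b2* to *Cox7b* it differed by 0.35 (exact permutation p = 0.300), for *Cox8c* to *Cox8a* by 0.15 (p = 0.424) and for *Cyct* to *Cycs* by 0.14 (p = 0.311).

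Whether the effect of the KO itself changed between stages was tested as an interaction over 18 libraries. By edgeR 0 of 89 members passed at either step, as did 0 of all 14479 genes tested (0%), and DESeq2 called 0 members, with 2 members from pachytene to round and 1 from round to condensing at an unadjusted p under 0.05 by both tools. The largest estimates were those of *Cox8a* at the first step and *Ndufs5* at the second. The interval of this difference, built in the same way and with the same limit, lay within 2-fold for 82 and 84 of the 89 members.

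**Figure D5:**
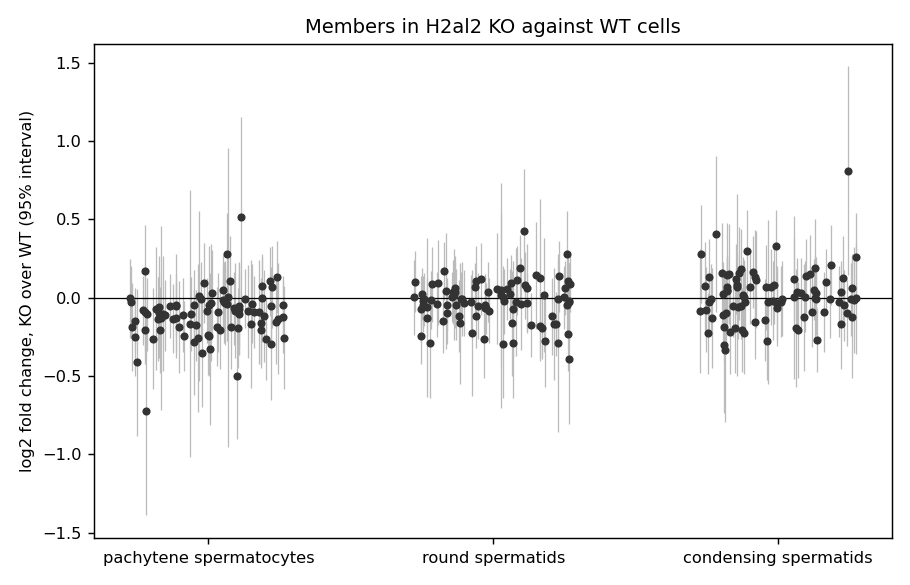
Log2 fold change of KO against WT for each tested member at 3 stages (edgeR), set side by side in no order of value. The bars are ± 1.96 standard errors, which the axis calls a 95% interval but which make no allowance for the small number of libraries. No member has an adjusted p under 0.05, and the largest differences are those of *Cox8a* in pachytene, *Ndufs8* in round and *Ndufs5* in condensing libraries.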

How the data were processed

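The 21 libraries of fractionated spermatogenic cells were made, per the labels, from 1 µg of total RNA each with a stranded kit after removal of ribosomal RNA, and read as 75-base pairs. The reads were mapped by the authors without trimming to the mm10 genome (STAR 2.7.11b in the submitters' processing notes). HTSeq counted them over exons on the reverse strand under strict intersection, leaving out multiply aligned reads, and the deposited values are these raw counts for 24456 genes per library. The notes also list DESeq2 1.22.2. The closing rows that name no gene held 34.6% to 57.8% of reads and entered neither library sizes nor tests.

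From these counts, levels were computed as TMM-normalized CPM over all libraries, with exon lengths and positions from GENCODE M21 and promoter windows from RefSeq. Gene tests were fitted on all genes that passed filterByExpr with edgeR's quasi-likelihood test (4.0.16) in R 4.3.3, with Benjamini-Hochberg adjustment over all genes tested and a threshold of 0.05. WT stages from pachytene to condensing were fitted together (9 libraries), likewise KO stages, and spermatozoa apart, because they had 2 replicates and the fewest reads. DESeq2 (1.42.0) was an alternative. The methods of the study give no test for these libraries. Intervals are the log2 fold change ± 1.96 standard errors and make no allowance for the small number of libraries. Isoform ratios, log2 of the 2 counts with 0.5 added to each, were tested by exact permutation over libraries, two-sided, and adjusted over 12 tests (scipy 1.17.1). Counting limits (3 counts for a count of 0) cover counting error only. Scripts were tested on simulated data.

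Genes were named by a rule: the 4 isoform pairs, the members with the largest changes in each WT stage comparison (5 per direction, or 3 in spermatozoa) among those past the threshold, at 1 CPM or more and without overlap, the most abundant member of each complex per kilobase in WT round spermatids, other tissue isoforms with their partners, and complex II. The members, lists and markers were chosen with earlier results of these data known. Alternatives were DESeq2, other scaling, no filter, a replicate block, 18 libraries in one fit, another pseudocount, WT round replicates 2 and 3 summed, and leaving out each library.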

Additional observations from a re-analysis of the deposited data

How the results depend on the processing

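Counts of members called stayed within 1.5 times the reported count in every alternative run. Leaving out 1 library at a time gave 50 to 67 members for WT round against pachytene, 24 to 32 for WT condensing against round, 52 to 59 and 30 to 39 for the same steps in KO, 46 to 60 for spermatozoa, and 0 in each comparison of KO with WT and each interaction. Deviations of same-numbered replicates from the group means correlated at −0.16 to 0.21 between genotypes and −0.18 to 0.27 between stages. Between WT stages the correlations were 0.13 and 0.27 for replicate 1, 0.18 and 0.24 for replicate 3, and −0.18 and −0.10 for replicate 2. Whether replicate numbers pair the WT fractions is thus not settled. A fit with the replicate number as a block called 61, 39, 58, 41 and 59 members in the 5 stage comparisons, in that order, and 0 between genotypes.

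With a pseudocount of 5 the *Cox7b2* to *Cox7b* ratio from pachytene to round changed by −0.86 and passed (exact permutation test, adjusted p = 0.0171). The cause was not tested. Leaving out 1 library, that ratio changed by −1.30 to −0.82, the *Cox6b2* to *Cox6b1* ratio by −0.51 to −0.26, *Cox8c* to *Cox8a* by −1.26 to −1.0 and *Cyct* to *Cycs* by −2.44 to −2.28. Between genotypes the *Cox6b2* ratio ran from −0.0093 to 0.16, being below 0 without WT pachytene replicate 3 (−0.0033) or WT condensing replicate 3 (−0.0093).

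Of 1084 recomputed values for single genes (89 pairs of gene and comparison), 1033 stayed on their side of the threshold with the same sign, 35 lost the call, 9 gained one and 7 changed sign, all 7 from values not called. These were *Cox7b* from pachytene to round in WT, with 0.0081 by DESeq2 size factors, 0.028 with round replicates 2 and 3 summed, and 0.11, 0.23 and 0.08 without pachytene replicate 3, round replicate 2 or round replicate 3 (range without 1 library −0.50 to 0.23), then *Cox8a* at the same step (0.10 without pachytene replicate 2, range −0.48 to 0.10), and *Tfam* from round to condensing (−0.12 without condensing replicate 3, range −0.12 to 0.19). Depth limits *Cox7b*, at 1 to 8 reads per library in pachytene and round spermatids.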

Other observations

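The single KO spermatozoa library entered no comparison. In it *Cox8c* was at 7.31 CPM and *Cox8a* at 39.6 CPM, *Cox7b2* at 5.18 and *Cox7b* at 18.3 CPM, *Cox6b2* at 18.9 and *Cox6b1* at 46.0 CPM, and *Cyct* at 4.87 and *Cycs* at 10.3 CPM. The testis isoform was thus the higher of the 2 per kilobase only for cytochrome *c*, as in the means of the WT spermatozoa libraries. All members together took 0.315% of its gene counts. The macrophage markers summed to 3271 CPM in this library, against 678 to 729 CPM in the WT spermatozoa libraries, and their part in these levels was not tested.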
